A study of Sus scrofa with 6 samples.

Results

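The genes described here encode the amino acid, peptide and related solute carriers of the families SLC1A, SLC3A, SLC6A, SLC7A, SLC15A, SLC36A, SLC38A and SLC43A in cultured pig testis cells given a stable form of vitamin C. Members were the rows of the gene count table whose symbol begins with one of these 8 family names, with SLC7A11 left out, and 50 of the 17670 rows qualified. One of them, SLC7A6OS, is named for its place on the strand opposite SLC7A6 and encodes no transporter, so counts below cover the other 49. A further 12 symbols of these families in the gene name table had no row and were not analysed here, among them SLC6A14, SLC6A19, SLC7A10 and SLC7A13. SLC7A6 is not among these 12, but it had no row under its symbol either and was not analysed.

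RNA was sequenced from immature Sertoli cells of fetal pigs at 80 to 90 days of gestation, kept in serum-containing medium. In the AA2P group, 3 libraries came from cells that received 250 µM L-ascorbic acid 2-phosphate (AA2P) after 6 h in culture, and 3 control libraries had no AA2P named in their labels. The sources used here do not give the length of the treatment. No label says that libraries of a group were separate cultures or animals, so p-values measure the spread between these samples only, which may be technical.

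Amino acid carriers work as families that share a fold and a driving force. SLC1 and SLC6 proteins couple uptake to sodium, as most SLC38 proteins do, and SLC15 and most SLC36 proteins couple it to protons. SLC43 proteins let amino acids pass down their gradient. Most SLC7 light chains are exchangers that reach the cell surface only when joined by a disulphide bond to a heavy chain, SLC3A1 or SLC3A2. In the adult testis, Sertoli cells form the barrier that separates the inner germ cells from blood, so their carriers supply the amino acids those germ cells use. The cells here were fetal, and transport was not measured.

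Library totals ran from 18747307 to 23521291 counts, and 12701 genes had enough counts to be tested. Levels are CPM, the counts scaled by library size with TMM factors, and 3 counts, the limit that a count of 0 allows, equal 0.123 to 0.165 CPM, counting error only. The cell type label was set against marker genes. AMH, the hormone of fetal Sertoli cells, had 34.5 ± 2.35 CPM with AA2P and 36.4 ± 1.52 CPM in control (SD, n = 3 each), WT1 23.8 ± 4.20 and 40.7 ± 4.21 CPM, and SOX9, the factor that specifies Sertoli cells, 2.22 ± 0.459 and 11.6 ± 0.648 CPM. The Sertoli markers NR5A1, DHH, INHA and KITLG had group means of at most 0.152 CPM, and 8 of the 19 listed Sertoli markers had no row. Of the 22 listed proximal tubule and mesonephric markers 19 had a row, and their summed level was 3221 to 3691 CPM with AA2P and 2196 to 2295 CPM in control. HNF4A, PAX2 and CDH16, which mark kidney epithelium, had 155 ± 21.1, 134 ± 6.78 and 75.4 ± 5.39 CPM with AA2P, against 38.6 ± 3.92, 98.7 ± 3.32 and 33.0 ± 3.82 CPM in control (SD, n = 3 each). Most of the summed level was CDH6, with 1987 ± 47.8 CPM with AA2P and 1787 ± 26.0 CPM in control. SLC22A6 and SLC22A8, organic anion carriers of the mature proximal tubule, averaged at most 0.0799 CPM in either group, and the water channel AQP1 had 1.40 ± 0.171 CPM with AA2P and 0.854 ± 0.311 CPM in control (SD, n = 3 each). Both marker sets were thus incomplete in both groups, and the cells are called by their label here without more.

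The transporter genes split into a group that was higher with AA2P and a group that was lower. Of the 35 transporter members tested, 27 were called at an adjusted p under 0.05, and AA2P libraries were higher in 12 and lower in 15 of these. In bulk RNA, fewer cells of a type and less RNA per cell cannot be told apart, here and below. Over all tested genes 52.1% were called, 26.0% higher and 26.1% lower, so the members' share of 77.1% lies above the background. A call with a change of at least 2-fold was made for 15 members, 8 higher and 7 lower, which is 42.9% of those tested, against 9.01% of all tested genes (5.53% higher and 3.48% lower). In 26 members the groups did not overlap, 12 above and 14 below control, and 59.3% of all tested genes had such groups. Scaling by library totals alone shifts the median of all tested genes upward by 0.17 on the log2 scale. It then calls 13 members higher and 12 lower, beside 45.1% and 14.3% of all tested genes, so small changes depend on the scaling. The median size of the log2 fold change, sign left aside, was 0.52 in the members and 0.23 in all tested genes. These shares are descriptions, and no test of the list was made. They cover only the 35 members that passed the filter on low counts, and SLC15A2, SLC6A12 and SLC38A5 passed it through 1 group alone. Of the 32 members that reached the filter level in both groups, 24 were called and 12 of these changed at least 2-fold. The share of all genes restricted in the same way was not computed, so these counts have no matching background. Adjusted p-values come from the quasi-likelihood test of edgeR, adjusted by Benjamini-Hochberg over all tested genes, and log2 fold changes are AA2P over control with their standard error (SE).

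**Figure D1:**
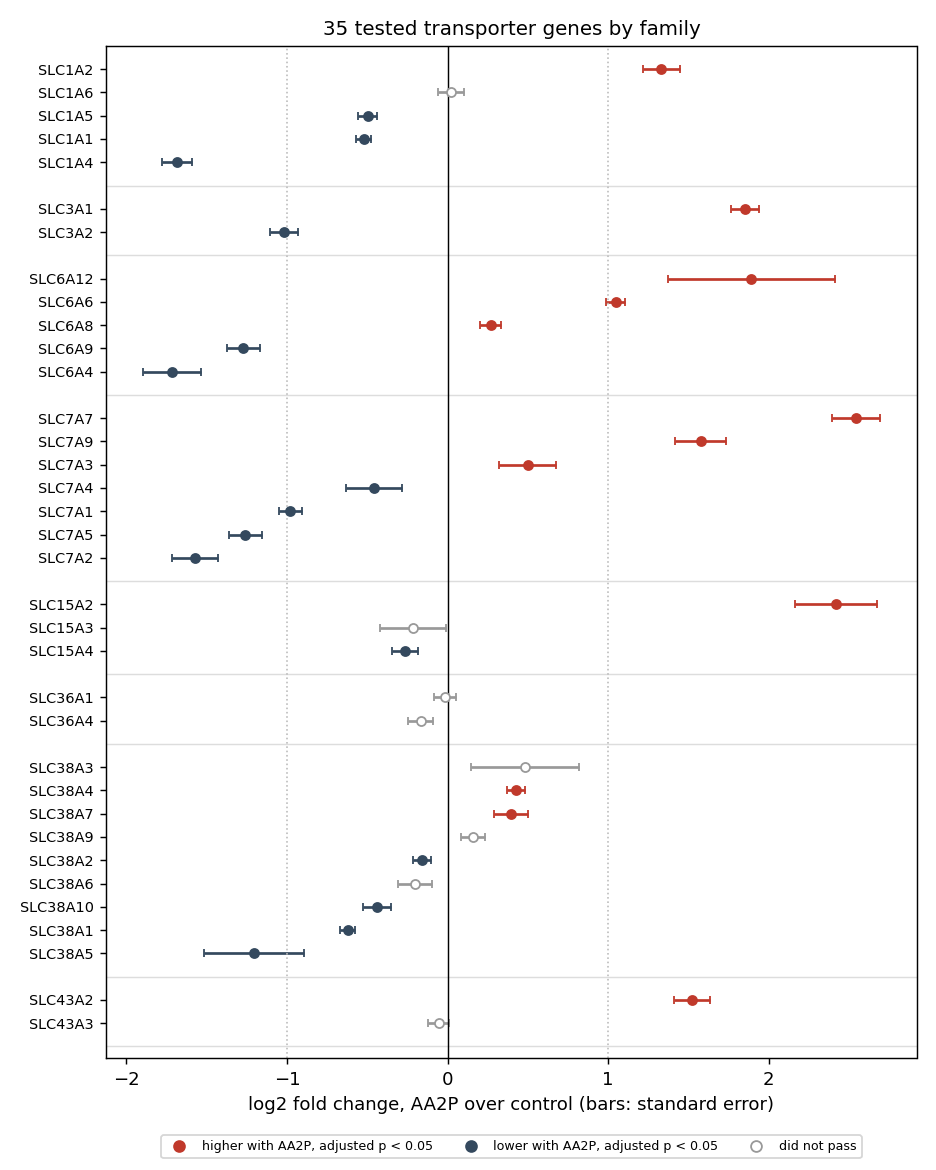
Log2 fold change of each of the 35 tested transporter genes, AA2P over control, with its standard error as a bar, ordered within the 8 families. Filled points passed an adjusted p of 0.05; 12 lie to the right of 0 and 15 to the left, and the dotted lines mark a 2-fold change.

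**Figure D2:**
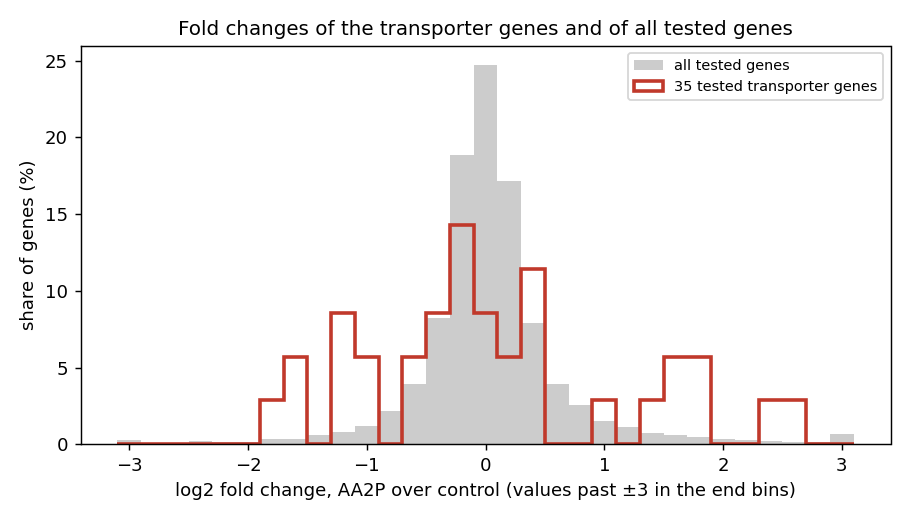
Share of genes (%) in bins of log2 fold change, for all 12701 tested genes (grey) and for the 35 tested transporter genes (red outline). All tested genes peak at 0, while 15 of the 35 transporter genes lie at least 1 log2 unit from it with a call.

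Both heavy chains changed, in opposite directions. SLC3A1, the partner of SLC7A9 in the brush border uptake of cystine and basic amino acids, had 149, 149.9 and 116 CPM in AA2P libraries 1 to 3, against 39.9, 35.9 and 38.8 CPM in control libraries 1 to 3. Its groups lay far apart, with AA2P library 3 the lowest of the treated libraries. The change was 3.61-fold (log2 fold change 1.85, SE 0.09, edgeR adjusted p = 4.83e-11), and its p ranked 83 among the 12701 tested genes. SLC3A2, the CD98 heavy chain that carries most other light chains, had 91.0, 106 and 128 CPM with AA2P, against 228, 215 and 215 CPM in control. Its highest treated library, again library 3, stayed below every control, and the fall was 2.03-fold (log2 fold change -1.02, SE 0.09, edgeR adjusted p = 4.59e-08).

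The light chains also divided into higher and lower genes, and SLC7A7 rose although SLC3A2 fell. SLC7A7, a light chain of the basolateral membrane that exports basic amino acids from epithelial cells and is mutated in lysinuric protein intolerance, had 49.8, 49.6 and 32.3 CPM with AA2P, against 8.34, 7.27 and 6.84 CPM in control. Every treated library was above every control, and the rise of 5.82-fold was the largest of the tested members (log2 fold change 2.54, SE 0.15, edgeR adjusted p = 6.74e-10). SLC7A9, the light chain partner of SLC3A1 in cystine uptake, had 6.31, 6.49 and 6.41 CPM with AA2P, against 2.61, 1.82 and 1.94 CPM in control. The treated libraries were close to one another and clear of the controls, a rise of 2.98-fold (log2 fold change 1.58, SE 0.16, edgeR adjusted p = 4.11e-07). SLC7A5, the LAT1 light chain that brings in leucine and other large neutral amino acids, had 172, 196 and 262 CPM with AA2P, against 514, 503 and 494 CPM in control. The controls were tight and the treated libraries spread, with library 3 nearest to the controls, and the fall was 2.40-fold (log2 fold change -1.26, SE 0.10, edgeR adjusted p = 3e-08). SLC7A8, the LAT2 light chain of basolateral membranes, was not detected at a testable level, with 0, 3 and 2 counts in AA2P libraries and 4, 0 and 6 in controls.

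**Figure D3:**
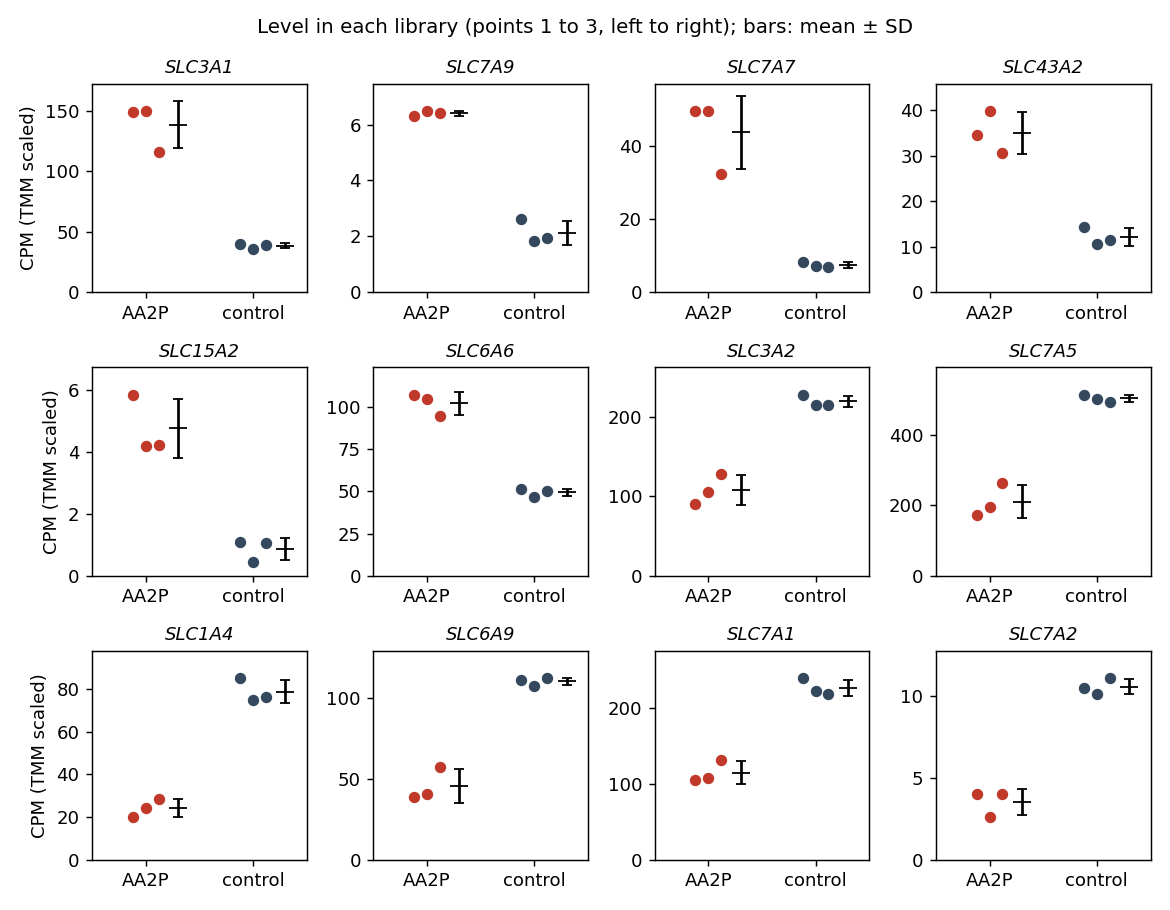
CPM of 12 members in each library, AA2P left of control, with the mean and SD (n = 3) beside the points and each vertical axis starting at 0. SLC3A1, SLC7A9, SLC7A7, SLC43A2, SLC15A2 and SLC6A6 were higher in all 3 AA2P libraries than in any control, and the other 6 genes were lower in all 3.

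Ratios of counts within a library do not depend on how libraries are scaled, though they do depend on gene length and are not subunit numbers. The pairs were chosen after their values were seen. The ratio of SLC3A1 to SLC3A2 counts was 1.64, 1.42 and 0.908 in AA2P libraries and 0.175, 0.166 and 0.181 in controls, a 7.38-fold difference on the mean log scale. SLC7A7 to SLC3A2 gave 0.547, 0.470 and 0.252 with AA2P, against 0.0366, 0.0338 and 0.0318 in control. Both ratios were higher in every treated library. SLC7A5 to SLC3A2 moved much less, at 1.89, 1.85 and 2.05 with AA2P against 2.25, 2.33 and 2.30 in control, with no overlap. SLC7A9 to SLC3A1 overlapped between groups, at 0.0423, 0.0433 and 0.0552 with AA2P and 0.0655, 0.0507 and 0.050 in control. An exact two-sided permutation test of 3 against 3 libraries cannot go below p = 0.1, which each non-overlapping ratio reached (adjusted p = 0.125 over the 5 ratios computed). SLC7A9 to SLC3A1 had an exact permutation p of 0.3. In SLC3A1 to SLC3A2, SLC7A7 to SLC3A2 and SLC38A4 to SLC38A1, given below, the genes had already separated in opposite directions. These ratios could not have overlapped, so their permutation p adds nothing.

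**Figure D4:**
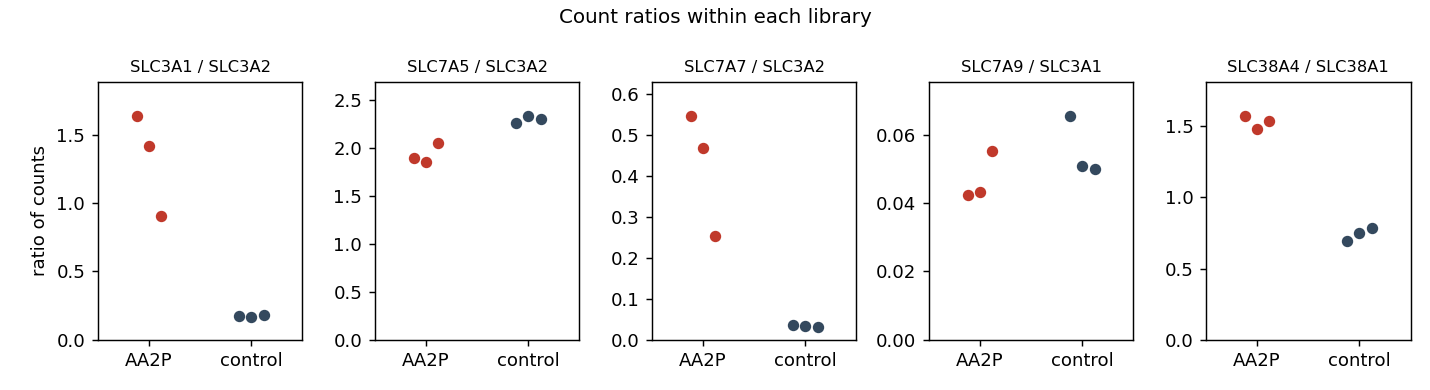
Ratio of read counts of the named genes within each library, AA2P left of control, each axis starting at 0. The ratio of SLC3A1 to SLC3A2 is 0.908 to 1.64 in the AA2P libraries and 0.166 to 0.181 in the controls, while SLC7A9 to SLC3A1 overlaps between groups.

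The cationic amino acid transporters, which work without a heavy chain, were mostly lower. SLC7A1, the CAT1 carrier that takes arginine and lysine into most cells, had 105, 107 and 132 CPM with AA2P, against 239, 222 and 218 CPM in control. Its groups did not overlap, and it fell 1.97-fold (log2 fold change -0.98, SE 0.07, edgeR adjusted p = 1.15e-08). SLC7A2, the CAT2 carrier, had 4.01, 2.63 and 3.99 CPM with AA2P, against 10.5, 10.1 and 11.1 CPM in control, all treated libraries below all controls. It fell 2.97-fold (log2 fold change -1.57, SE 0.14, edgeR adjusted p = 1.21e-07). SLC7A3 and SLC7A4 had smaller differences at low levels, with log2 fold changes of 0.50 (SE 0.18, edgeR adjusted p = 0.0287) and -0.46 (SE 0.17, edgeR adjusted p = 0.0352). SLC7A3 lost its call without AA2P library 2 or 3 or control library 1 or 2, and SLC7A4 without AA2P library 1 or control library 1 or 2. DESeq2 called neither.

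Among the SLC1 carriers, the exchangers of small neutral amino acids fell and the glutamate carriers went apart. SLC1A4 (ASCT1), which exchanges serine, alanine and cysteine, had 20.1, 24.4 and 28.6 CPM with AA2P, against 84.9, 74.9 and 76.1 CPM in control. The highest treated library was far below the lowest control, and the fall was 3.21-fold (log2 fold change -1.68, SE 0.09, edgeR adjusted p = 3.81e-10). SLC1A5 (ASCT2), a main route of glutamine into cultured cells, had 415, 453 and 493 CPM with AA2P, against 658, 647 and 619 CPM in control, without overlap. It fell 1.41-fold (log2 fold change -0.50, SE 0.06, edgeR adjusted p = 2.22e-06).

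SLC1A1 (EAAT3), the glutamate carrier of epithelia and neurons, had 152, 142 and 141 CPM with AA2P, against 207, 209 and 209 CPM in control. These groups were tight and separate, and the gene fell 1.44-fold (log2 fold change -0.52, SE 0.05, edgeR adjusted p = 1.53e-07). SLC1A2 (EAAT2), the main glutamate carrier of astrocytes, had 11.4, 13.6 and 12.3 CPM with AA2P, against 5.14, 4.52 and 5.10 CPM in control. Every treated library was above every control, a rise of 2.52-fold (log2 fold change 1.33, SE 0.12, edgeR adjusted p = 7.02e-08). SLC1A6 overlapped between groups at 26.7 ± 1.69 CPM with AA2P and 26.3 ± 2.54 CPM in control (SD, n = 3 each), and its log2 fold change of 0.02 (SE 0.08) did not pass and changed sign without AA2P library 1 or control library 1. SLC1A3 and SLC1A7 had at most 2 counts in any library.

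Of 11 SLC6 members with a row 5 could be tested, and all 5 were called, beside 52.1% of all tested genes. SLC6A6, the taurine carrier, had 107, 105 and 94.7 CPM with AA2P, against 51.2, 47.0 and 50.05 CPM in control. The groups stood well apart, and the gene rose 2.07-fold (log2 fold change 1.05, SE 0.06, edgeR adjusted p = 6.36e-10). SLC6A8, the creatine carrier, rose less, with 44.0, 41.5 and 46.3 CPM with AA2P against 35.6, 36.2 and 37.7 CPM in control (log2 fold change 0.27, SE 0.06, edgeR adjusted p = 0.00209). SLC6A12, a carrier of betaine and GABA, had 18, 14 and 12 counts in AA2P libraries, against 8, 2 and 1 in controls. These low counts did not overlap (log2 fold change 1.89, SE 0.52, edgeR adjusted p = 0.00608), but the value was 3.05 without control library 1. SLC6A12 passed the filter on low counts through the AA2P group alone and did not meet a filter of 1 CPM in 3 libraries.

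The carriers of glycine and serotonin were lower. SLC6A9 (GLYT1), which takes up glycine, had 38.5, 40.5 and 57.3 CPM with AA2P, against 111, 108 and 112 CPM in control. AA2P library 3 was again the treated library nearest to the controls, and the fall was 2.41-fold (log2 fold change -1.27, SE 0.10, edgeR adjusted p = 3.01e-08). SLC6A4, the serotonin carrier, had 1.90, 2.58 and 2.51 CPM with AA2P, against 7.08, 9.64 and 6.50 CPM in control, also without overlap. It fell 3.29-fold (log2 fold change -1.72, SE 0.18, edgeR adjusted p = 5.95e-07). SLC6A18 and SLC6A20, neutral and imino acid carriers of the kidney brush border, had 0, 2 and 1 and 3, 1 and 7 counts in AA2P libraries, against 0, 0 and 0 and 1, 1 and 0 in controls. SLC6A13, a GABA and taurine carrier, had 7, 7 and 0 counts with AA2P and 0, 0 and 1 in control, and SLC6A17, SLC6A3 and SLC6A5 had at most 10 counts in any library.

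The peptide carriers held 1 member called higher, SLC15A2, which passed the filter on low counts through the AA2P group alone. SLC15A2 (PEPT2), which takes filtered di- and tripeptides back up in the kidney, had 117, 85 and 103 counts in AA2P libraries, against 24, 8 and 22 in controls. In CPM these were 5.86, 4.21 and 4.23 with AA2P and 1.08, 0.441 and 1.07 in control, all treated libraries above all controls (5.35-fold, log2 fold change 2.42, SE 0.25, edgeR adjusted p = 6.14e-07). The gene EAF2, which overlaps SLC15A2 in the pig reference annotation, had 1.51 CPM with AA2P and 0.303 CPM in control, and rose as well (log2 fold change 2.24, edgeR adjusted p = 9.7e-05). Since the strand setting of the counting is unknown, reads of these neighbours may not be told apart. SLC15A4, a lysosomal carrier of histidine and peptides, was 16.1 ± 0.306 CPM with AA2P and 19.3 ± 0.765 CPM in control (SD, n = 3 each), a log2 fold change of -0.27 (SE 0.08, edgeR adjusted p = 0.0109). Its call was lost without control library 1 and with library totals. SLC15A3 did not pass, with 1.60 ± 0.115 CPM with AA2P and 1.86 ± 0.135 CPM in control (SD, n = 3 each), and SLC15A1, the intestinal PEPT1, had at most 5 counts in any library.

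SLC43A2 (LAT4), a basolateral uniporter that lets branched-chain and aromatic amino acids leave epithelial cells, had 34.6, 39.8 and 30.6 CPM with AA2P, against 14.3, 10.5 and 11.5 CPM in control. No treated library came near the controls, and the rise was 2.87-fold (log2 fold change 1.52, SE 0.11, edgeR adjusted p = 1.07e-08). SLC43A3, a carrier of purine bases rather than amino acids, overlapped at 56.6 ± 4.53 CPM with AA2P and 58.9 ± 1.52 CPM in control (SD, n = 3 each), with a log2 fold change of -0.06 (SE 0.06) that was 0.11 with library totals and not called. SLC43A1 had at most 4 counts in any library.

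Of 9 tested SLC38 members 6 were called, 2 higher and 4 lower, with 1 change of at least 2-fold. The share called was 66.7%, beside 52.1% of all tested genes. SLC38A1 and SLC38A2 are the widespread system A carriers of glutamine and alanine, and SLC38A4 is the liver and placenta form. SLC38A1 had 82.9, 81.2 and 84.1 CPM with AA2P, against 130.2, 126 and 126 CPM in control, and SLC38A4 had 130.5, 120.5 and 129 CPM with AA2P, against 90.0, 94.2 and 98.7 CPM in control. Neither pair of groups overlapped, and the fold changes had opposite signs, at -0.62 (SE 0.05, edgeR adjusted p = 2.04e-08) for SLC38A1 and 0.43 (SE 0.05, edgeR adjusted p = 5.52e-06) for SLC38A4. The ratio of SLC38A4 to SLC38A1 counts was 1.57, 1.48 and 1.54 with AA2P and 0.692, 0.747 and 0.784 in control. These genes neighbour one another, with SLC38A2 between them, in the pig reference assembly, leaving uncharacterised loci aside. SLC38A2 had 241, 219 and 221 CPM with AA2P, against 253, 238 and 269 CPM in control, and these values overlapped. Its log2 fold change of -0.16 (SE 0.06, edgeR adjusted p = 0.0246) passed only narrowly, and the call was lost without AA2P library 2, without control library 1 or without control library 3. With library totals its log2 fold change was 0.0087 and not called.

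SLC38A10 had 102, 109.9 and 118 CPM with AA2P, against 145, 175 and 128 CPM in control, separate but with scattered controls (log2 fold change -0.44, SE 0.09, edgeR adjusted p = 0.000482). SLC38A7, a lysosomal glutamine exporter, rose to 13.6 ± 1.54 CPM with AA2P, against 10.3 ± 0.806 CPM in control (SD, n = 3 each; log2 fold change 0.40, SE 0.11, edgeR adjusted p = 0.0054). SLC38A5, a system N carrier of glutamine and serine, had 6, 10 and 16 counts in AA2P libraries, against 26, 21 and 23 in controls. It fell 2.31-fold on these few counts (log2 fold change -1.21, SE 0.31, edgeR adjusted p = 0.00419), and passed the filter on low counts through the control group alone. SLC38A9, the lysosomal arginine sensor of mTORC1, did not pass at 44.0 ± 4.92 CPM with AA2P and 39.3 ± 1.71 CPM in control (SD, n = 3 each), though it did without AA2P library 3, where its log2 fold change was 0.23 against 0.16. SLC38A9 was also called with library totals, at 0.33. SLC38A3 and SLC38A6 did not pass, with log2 fold changes of 0.48 (SE 0.34) and -0.20 (SE 0.10). SLC38A6 was called lower without the filter on low counts (-0.21), without AA2P library 1 (-0.29) and without control library 1 (-0.30). SLC38A8 and SLC38A11 had at most 2 counts in any library.

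Neither tested SLC36 carrier passed. SLC36A1, which exports amino acids from lysosomes, had 32.5 ± 2.21 CPM with AA2P and 32.9 ± 1.02 CPM in control, and SLC36A4 had 25.3 ± 2.27 CPM with AA2P and 28.4 ± 1.32 CPM in control (SD, n = 3 each). Their log2 fold changes were -0.02 (SE 0.07) and -0.17 (SE 0.08), and without AA2P library 1 SLC36A4 was called at -0.24. With library totals both signs turned, to 0.15 and 0.0035, without a call. SLC36A2, the renal glycine and proline carrier, had at most 2 counts in any library. SLC7A6OS, which is no transporter, had 23.1 ± 1.57 CPM with AA2P and 20.7 ± 0.850 CPM in control (SD, n = 3 each) and was not called.

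**Figure D5:**
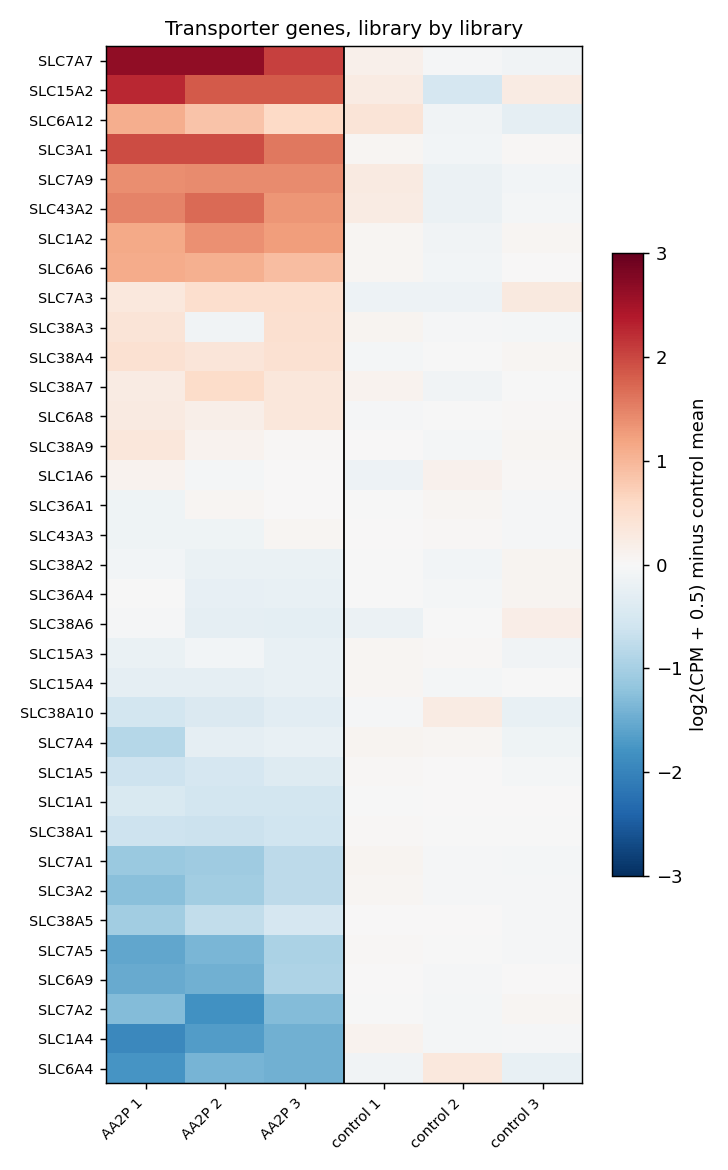
Level of each tested transporter gene in each library as log2(CPM + 0.5) minus the mean of the controls, AA2P libraries on the left, genes ordered by log2 fold change. Of the 15 genes called lower, 11 have AA2P library 3 as the treated library nearest to the controls, or 73.3%, beside 53.4% of all genes called lower.

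The treated libraries did not move by equal amounts. AA2P library 3 was the treated library nearest to the control mean in 16 of the 27 called members, or 59.3%, close to its share of 54.7% over all 6615 called genes. The split was 11 of 15 for members called lower and 5 of 12 for members called higher, or 73.3% and 41.7%, beside 53.4% and 56.1% of all genes called lower and higher. No test of these shares was made. Without AA2P library 3 the log2 fold changes of SLC7A5, SLC3A2, SLC6A9 and SLC1A4 were -1.45, -1.16, -1.48 and -1.82. Library 3 was their treated library nearest to the controls, so larger changes without it follow from the choice of genes. Higher genes with library 3 nearest grew as well, among them SLC7A7 (2.54 to 2.73), SLC3A1 (1.85 to 1.97) and SLC43A2 (1.52 to 1.62). Without library 3, 26 of the 27 calls remained in the same direction, all but SLC7A3.

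Genes of other lists give the setting. ATF4 is a transcription factor that amino acid shortage and other stresses switch on, and in human and mouse cells its targets include SLC7A5, SLC3A2, SLC7A1, SLC1A4, SLC1A5, SLC6A9, SLC38A2 and SLC7A11. Of 19 tested genes of the ATF4 pathway 16 were lower and 0 higher, which is 84.2% called. Of all tested genes 52.1% were called, 26.0% higher and 26.1% lower. The median log2 fold change was -0.97 in this list and -0.00049 in all tested genes. ATF4 itself was not analysed here. The summed level of this list was 1355, 1424 and 1657 CPM in AA2P libraries 1 to 3 and 3958, 3978 and 3959 CPM in controls, so library 3 was highest among the treated ones. CTH and PSAT1, enzymes of cysteine and serine synthesis, and the receptor gene VLDLR had the smallest p-values of the list, with falls of 4.12-fold, 2.34-fold and 2.41-fold (edgeR adjusted p = 4.17e-12, 5.77e-12 and 1.76e-11). Asparagine synthetase (ASNS), which the list of glutamine enzymes also holds, had 198 ± 34.9 CPM with AA2P and 722 ± 14.8 CPM in control (SD, n = 3 each). The part of ATF4 in the transporter changes was not tested.

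Of 11 tested carriers of amino acids outside the 8 families, counting SLC7A11, 6 were higher and 2 lower. That is 72.7% called, beside 52.1% of all tested genes. SLC7A11, the cystine-glutamate exchanger that also pairs with SLC3A2, fell 5.56-fold to 20.4 ± 7.26 CPM with AA2P, against 115 ± 7.32 CPM in control (SD, n = 3 each; edgeR adjusted p = 7.12e-10). SLC25A15 and SLC25A22, mitochondrial carriers of ornithine and glutamate, rose 1.66-fold and 1.30-fold.

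Of 9 tested partners and regulators of these carriers 6 were higher and 3 lower, or 100% called, beside 52.1% of all tested genes. ANPEP, a brush border aminopeptidase that binds neutral amino acid carriers, and PDZK1, a scaffold under apical carriers, rose 14.4-fold and 13.9-fold, while CD44, which stabilises SLC7A11, fell 2.17-fold. CLTRN, which carries SLC6A19 to the surface in kidney, rose 3.41-fold and was named after its value was seen. Of 4 tested peptidases 3 were higher (75% called), ANPEP, DPP4 and the cytosolic LAP3. The proximal tubule and mesonephric markers, of which 17 were tested, had 14 higher and 2 lower (94.1% called), with a median log2 fold change of 1.02. SLC34A1, HNF4A and LRP2 had the smallest p-values of these, rising 5.67-fold, 4.01-fold and 7.94-fold. The 2 lower genes were MIOX, an enzyme of inositol breakdown in the proximal tubule, which fell 4.09-fold, and EMX2, which fell 1.63-fold (edgeR adjusted p = 3.02e-09 and 5.31e-06). PDZK1 belongs to this list too. The markers called higher rose in the same libraries as SLC3A1, SLC7A9, SLC7A7, SLC43A2 and SLC15A2. With this design that holds for every gene called higher, SLC1A2 and SLC6A6 included. SLC1A1, the glutamate carrier of epithelia and neurons, fell 1.44-fold instead. The part of the proximal tubule and mesonephric markers in these changes was not tested. 

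Markers of other testis cell types were few. Of the Leydig, peritubular, stromal, endothelial, macrophage and germ cell lists, 1, 4, 3, 2, 2 and 1 genes could be tested. Of these, 0, 1, 1, 1, 1 and 0 were higher and 0, 3, 2, 1, 1 and 0 lower with AA2P. Over all tested genes 52.1% were called, 26.0% higher and 26.1% lower, so calls in lists this short say little. Their summed levels were 6.46 to 7.53 CPM for Leydig, 10.6 to 13.0 for endothelial, 5.45 to 6.01 for macrophage and 1.40 to 1.64 for germ cell markers with AA2P, against 5.58 to 5.90, 8.54 to 10.0, 1.89 to 3.20 and 1.76 to 2.23 CPM in control. Peritubular and stromal lists summed to 294 to 346 and 73.9 to 80.8 CPM with AA2P and to 416 to 423 and 111 to 114 CPM in control, and PDGFRB averaged at most 0.0167 CPM in either group. CYP17A1, CSF1R and CD163 were under the level of 3 counts as well. TAGLN made up most of the peritubular sum, at 307 ± 25.2 CPM with AA2P and 375 ± 5.44 CPM in control (SD, n = 3 each), and fell 1.22-fold, while DES and ACTG2 fell 4.64-fold and 2.35-fold. COL3A1 and COL1A1, collagens of the stromal list, fell 2.10-fold and 2.52-fold, and NR2F2 rose 2.02-fold. PECAM1 rose 3.10-fold and EGFL7 fell 1.59-fold among endothelial markers. The macrophage markers AIF1 and TYROBP went apart, AIF1 rising 7.09-fold to 5.17 ± 0.348 CPM with AA2P, against 0.727 ± 0.314 CPM in control (SD, n = 3 each), and TYROBP falling 5.25-fold. The Sertoli list, of which 7 genes were tested, had 2 higher and 4 lower, or 85.7% called, beside 52.1% of all tested genes. Its summed level was 1205 to 1732 CPM with AA2P and 4173 to 4482 CPM in control, most of it CLU. CLU and SOX9 fell 3.25-fold and 5.20-fold. The part of these markers in the transporter changes was not tested.

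For genes that sense or use the carried amino acids, counts of calls stand beside the background of 52.1% of all tested genes. Of 32 tested genes of amino acid sensing by mTORC1, 8 were higher and 7 lower, none by 2-fold, which is 46.9% called and below the background. Within this list SESN3, MTOR and DEPDC5 changed 1.82-fold up, 1.25-fold down and 1.51-fold up. Of 12 tested enzymes of glutamine, glutamate, proline and GABA metabolism 4 were higher and 4 lower. PYCR1, which makes proline, fell 2.57-fold, and ALDH4A1, which acts in proline breakdown, rose 2.18-fold. ABAT, which breaks down GABA and was named after its value was seen, rose 5.53-fold. Of 14 tested genes of branched-chain amino acid breakdown 5 were higher and 2 lower, near the background, with BCAT1, the cytosolic transaminase, down 2.15-fold and HIBADH and IVD up 1.27-fold and 1.24-fold. Of 7 tested enzymes around taurine, creatine, betaine and carnitine 4 were higher and 1 lower. GATM, the first enzyme of creatine synthesis, rose 4.97-fold to 30.4 ± 5.63 CPM with AA2P, against 6.08 ± 0.368 CPM in control (SD, n = 3 each), and TMLHE and CSAD, of carnitine and taurine synthesis, rose 1.35-fold and 1.49-fold.

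Other genes overlap some members in the pig reference annotation, so that reads could be shared where strand was not used. PREPL, which overlaps SLC3A1, had 138 CPM with AA2P and 143 CPM in control, and OXA1L, which overlaps SLC7A7, had 229 and 224 CPM. TDRD12, which overlaps SLC7A9, had 105 CPM in both groups. None of these partners was called (edgeR adjusted p = 0.482, 0.607 and 1). CCDC24, which overlaps SLC6A9, was higher with AA2P, at 8.05 CPM against 5.30 CPM in control (log2 fold change 0.61, edgeR adjusted p = 0.00185), while SLC6A9 was lower. TMEM132A, which overlaps SLC15A3, fell by 0.58 on the log2 scale, and PLPP1, which overlaps SLC38A9, rose by 0.25 (edgeR adjusted p = 9.92e-07 and 0.0164). DEUP1 and P2RX6, which overlap SLC36A4 and SLC7A4, were not called.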

How the data were processed

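Total RNA of 6 libraries was sequenced. Reads were made with bcl2fastq and aligned with HISAT2 2.0.5, per the submitters' processing notes. No source used here names the counting tool, its use of strand, the gene models or the assembly. The table the authors deposited holds raw whole-number counts for each gene. No coordinates are printed; gene neighbours come from the RefSeq annotation of a pig assembly that may differ from the build used.

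Gene symbols came from a table of gene names, which matched 13141 of 17670 identifiers. Rows without a symbol could hold members or markers that are said here to have no row. The groups were compared in R 4.3.3 with edgeR 4.0.16, by its quasi-likelihood F test, with TMM factors (1.05 to 1.07 in AA2P, 0.941 to 0.945 in control), the filterByExpr filter and the group alone as model, on the whole table of 12701 tested genes, with a threshold of 0.05 on the Benjamini-Hochberg adjusted p. The SE was taken as the size of the log2 fold change divided by the root of the F statistic. The procedure was tested on simulated data. Every member is accounted for; full statistics are given for called members with at least 2-fold change and 1 CPM in either group, up to 3 further called members of a family by smallest p, the heavy chains and the light chains, and of each list up to 3 called genes. The count ratios were picked after their values were seen. The members, lists and rule were chosen with earlier results of these data known. Alternatives were DESeq2 size factors, library totals, no filter, 1 CPM in 3 libraries, DESeq2 1.42.0, limma-voom (limma 3.58.1), a block for the replicate number, leaving out each library in turn, and an adjusted p of 0.01. Marker genes at or under 3 counts were read as not detectable at this depth. Some genes of the lists are not reported here by name.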

Additional observations from a re-analysis of the deposited data

How the results depend on the processing

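Scaling moved the counts over all tested genes most. Scaling by library totals rather than TMM factors shifted the median over all tested genes by 0.17 (log2), and 5727 genes were called higher and 1822 lower, against 3302 and 3313. The transporter members then had 13 higher and 12 lower calls, against 12 and 15. Signs turned for SLC36A1 (0.15), SLC36A4 (0.0035), SLC38A2 (0.0087) and SLC43A3 (0.11), none of them called, and SLC15A4, SLC38A2 and SLC7A4 lost their calls while SLC38A9 gained one at 0.33. The cause was not tested. Leaving out libraries turned the uncalled signs of SLC1A6, whose log2 fold change ranged from -0.055 to 0.083 over the 6 fits, and of SLC36A1, which ranged from -0.058 to 0.035. Leaving out control library 1 ended 4 of the 27 members' calls (SLC15A4, SLC38A2, SLC7A3 and SLC7A4), against 3 with library totals. Over the 6 fits that left out a library, members called higher numbered 11 to 12 and lower 13 to 16, and all genes called numbered 2869 to 3438 higher and 2845 to 3437 lower. Every member changed at least 2-fold kept its direction and its call in each alternative that tested it, but SLC6A12 was not tested with at least 1 CPM in 3 libraries. At an adjusted p of 0.01, 11 members were higher and 12 lower. The replicate number as a block gave 12 and 15 members and 3094 and 3110 genes, and changed no call of a member. Same-numbered libraries showed correlations of deviations of -0.08, 0.00017 and -0.07, and other pairs -0.095 to 0.16. With 3 libraries in a group, these values cannot decide whether the labels' numbers pair the libraries. DESeq2 called 11 members higher and 14 lower. Depth limits the 14 untested members, which had at most 10 counts in any library.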
